A study of Mus musculus with 12 samples.

Results

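Transcript levels of 41 genes of the NF-kB, Toll receptor and inflammasome pathways were followed in mouse bone marrow progenitors that differed in Tet2 and Id1. The 41 genes were taken by symbol from the 55450 genes of the counts table, and all 41 were found. They comprise 5 NF-kB subunits, 5 inhibitors or IkB-like regulators, 3 genes of the IkB kinase complex, 4 of the TNF receptor arm, 6 of the Toll receptor arm, 9 targets and feedback genes, 6 cytokines and 3 inflammasome genes. The list was set by gene function, with earlier results of these data known.

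Lineage-negative, Kit-positive donor cells (LK cells, a mix of stem and progenitor cells) were sorted from marrow of mice that had received competitive transplants, and total RNA depleted of ribosomal RNA was sequenced. Each of 4 genotype labels has 3 libraries: WT, Tet2 KO (here Tet2KO), Id1 KO (Id1KO) and the double knockout (dKO). The gene Tet2 encodes an enzyme that oxidises methylated cytosine in DNA, and its loss drives clonal expansion of blood stem cells. Id1 encodes a protein that keeps basic helix-loop-helix factors from DNA. The alleles, the way they were deleted, the donors' and hosts' strain and age, and the number of mice behind a library are not given in the sources used here. The 3 libraries of a genotype carry a single sample number in their titles and may be repeats of 1 cell sample, so every p-value below measures the spread between libraries and not between mice. In all 12 pairs within a genotype the libraries differed by more than sampling noise. The median ratio to that noise was 1.181 to 2.098 within a genotype and 2.889 to 5.941 between genotypes. Pooled over so many genes, even a slight technical difference passes this test. It cannot tell repeats of 1 cell sample from separate samples.

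The libraries held 15706407 to 19959183 estimated counts in all. Levels are given as CPM, which are counts scaled to a common library size. The targeted genes did not bear out the labels. Tet2 stood at 97.6 to 102 CPM in WT, 90.3 to 93.3 in Id1KO, 127 to 132 in Tet2KO and 115 to 121 in dKO. Id1 stood at 1.24 to 1.76 CPM in WT and at 3.35 to 4.35 in the other 9 libraries. A gene count cannot see a deletion of part of a gene or one that leaves its transcript in place, and genotype names below mean libraries so labelled. Kit, a marker of the LK gate, ran from 314 to 377 CPM and Cd34 from 279 to 370 in the 12 libraries. Ly6g of mature neutrophils, Ms4a1 of B cells and Cd3e and Cd3g of T cells were at or under 0.5 CPM in each. Not all markers on the same lists were this low. S100a8 of the neutrophil list ran from 39.7 to 56.5 CPM and Nkg7 of the T and NK cell list from 113 to 150.

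NF-kB factors are dimers of the Rel family (Nfkb1, Nfkb2, Rel, Rela and Relb) that IkB proteins hold in the cytoplasm. Signals from TNF receptors, Toll-like receptors and the interleukin-1 receptor activate the IkB kinase complex, IkB is degraded, and the dimers bind kB sites and switch on cytokines, adhesion molecules and the genes of their own brakes, such as Nfkbia and Tnfaip3. Inflammasomes, such as that of Nlrp3 with Pycard and Casp1, then process interleukin-1. In blood progenitors this pathway links infection and inflammation to myeloid output, and inflammatory signals are known to favour cells without Tet2.

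The promoters of 5 members are shown with their kB consensus matches. Nlrp3, Rel, Tnfaip3 and Ier3 varied most over the genotypes among members with a mean of at least 5 CPM. Nfkbia was added as a gene that acts as feedback on NF-kB. All 5 hold a match, so they do not stand for the 41. The RefSeq table (GRCm38.p6) gives windows from 250 bases before to 50 after each transcript start, and 33 of the 41 members had one. The lines give only bases before the start that no annotated exon of the gene covers, 5′ to 3′ on the gene's strand, with matches to the kB consensus on either strand in capitals. They are chr11:23770971-23771219 (minus strand) for Rel, chr10:19015411-19015547 (minus) for Tnfaip3, chr12:55492648-55492897 (minus) for Nfkbia, chr17:35821463-35821683 (plus) for Ier3 and chr11:59541319-59541567 (plus) for Nlrp3.
Rel: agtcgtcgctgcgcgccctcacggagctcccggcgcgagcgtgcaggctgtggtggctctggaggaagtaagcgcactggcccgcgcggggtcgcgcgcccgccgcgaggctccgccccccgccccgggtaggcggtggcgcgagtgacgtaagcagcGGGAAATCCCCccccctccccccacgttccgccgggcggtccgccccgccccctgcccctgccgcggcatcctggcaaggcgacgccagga
Tnfaip3: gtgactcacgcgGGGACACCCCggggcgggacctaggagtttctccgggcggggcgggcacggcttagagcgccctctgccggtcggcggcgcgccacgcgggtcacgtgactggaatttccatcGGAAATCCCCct
Nfkbia: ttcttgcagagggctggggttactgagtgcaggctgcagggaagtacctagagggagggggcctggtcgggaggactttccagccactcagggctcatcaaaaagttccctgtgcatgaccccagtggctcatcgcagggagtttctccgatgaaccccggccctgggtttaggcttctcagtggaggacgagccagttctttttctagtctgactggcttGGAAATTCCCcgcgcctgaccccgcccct
Ier3: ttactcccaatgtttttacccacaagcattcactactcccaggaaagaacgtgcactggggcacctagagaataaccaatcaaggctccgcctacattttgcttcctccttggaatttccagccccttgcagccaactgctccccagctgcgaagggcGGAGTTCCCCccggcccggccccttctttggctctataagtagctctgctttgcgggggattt
Nlrp3: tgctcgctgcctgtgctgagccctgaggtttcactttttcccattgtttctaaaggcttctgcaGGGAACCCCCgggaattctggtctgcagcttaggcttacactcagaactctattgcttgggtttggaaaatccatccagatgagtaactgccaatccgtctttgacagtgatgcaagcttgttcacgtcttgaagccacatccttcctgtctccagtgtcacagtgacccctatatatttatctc
The capitals in Rel are 2 overlapping matches, Tnfaip3 holds 2 separate ones, and Nfkbia, Ier3 and Nlrp3 hold 1 each. At least 1 match was found in 15 of the 33 members (45.5%), in 9.55% of all 27025 genes with a window and in 12% of the 9878 of them that were tested for expression. Among the genes of the same pathways outside the 41, 16 of 68 (23.5%) had a match. The matched members were Nfkb2 and Rel among subunits, Nfkbia, Nfkbie and Bcl3 among inhibitors, Ier3, Irf1, Tnfaip2, Tnfaip3 and Tnip1 among targets, Irak1, Tlr2, Cxcl2, Il6 and Nlrp3. The AP-1 motif TGANTCA, searched in the same way and independent of the kB motif, was found in 5 of 33 members (15.2%), in 8.97% of all genes with a window, in 6.01% of those tested for expression and in 10 of the 68 other pathway genes (14.7%). A match is a run of letters and not evidence of binding, and the data hold no binding or chromatin measurement.

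Most members were measurably transcribed in these cells, and 3 of the 6 cytokines stood under 1 CPM. A mean of at least 5 CPM was reached by 32 members, the cytokines Ccl3 and Tnf among them, Relb, Bcl3, Ptgs2 and Ccl4 lay between 1 and 5 CPM, and Traf1, Cd83, Il1b, Il6 and Cxcl2 lay under 1 CPM. Irak1, a kinase below Toll receptors, led at 32.2 CPM per kb of merged exons. Next came Tnfaip2, a TNF-induced gene, at 30.6, the inhibitor Nfkbia at 30.4, the TNF receptor Tnfrsf1a at 30.1 and the protease Casp1 at 28.6. The length counts every annotated exon of a gene, 19078 bases for Ikbkb and 12061 for Nfkb1, and not only the transcript in use. The order of genes on this scale is therefore approximate. Among subunits Rela at 18.4 and Nfkb1 at 16.1 CPM per kb stood above Nfkb2 at 4.41, Rel at 2.86 and Relb at 0.533. The lowest were Traf1 at 0.0824 and Cd83 at 0.0848 CPM per kb. Il1b held 7 to 14 counts per library and Il6 5 to 17, so only large differences in these cytokines were measurable at this depth. The exons of Ikbkg, Irf1, Tnfaip2, Nfkb2, Il1b, Nfkbib, Pycard, Myd88, Icam1, Bcl3, Irak4 and Tnfaip8 overlap those of a gene on the opposite strand, and with the strand setting of the counting not given in the sources used here, reads from the 2 strands cannot be told apart there. Birc3, Cxcl2, Icam1, Ikbkb, Ikbkg, Irak1 and Relb share stretches of at least 95% identity with other genes, which makes their levels less certain.

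**Figure D1:**
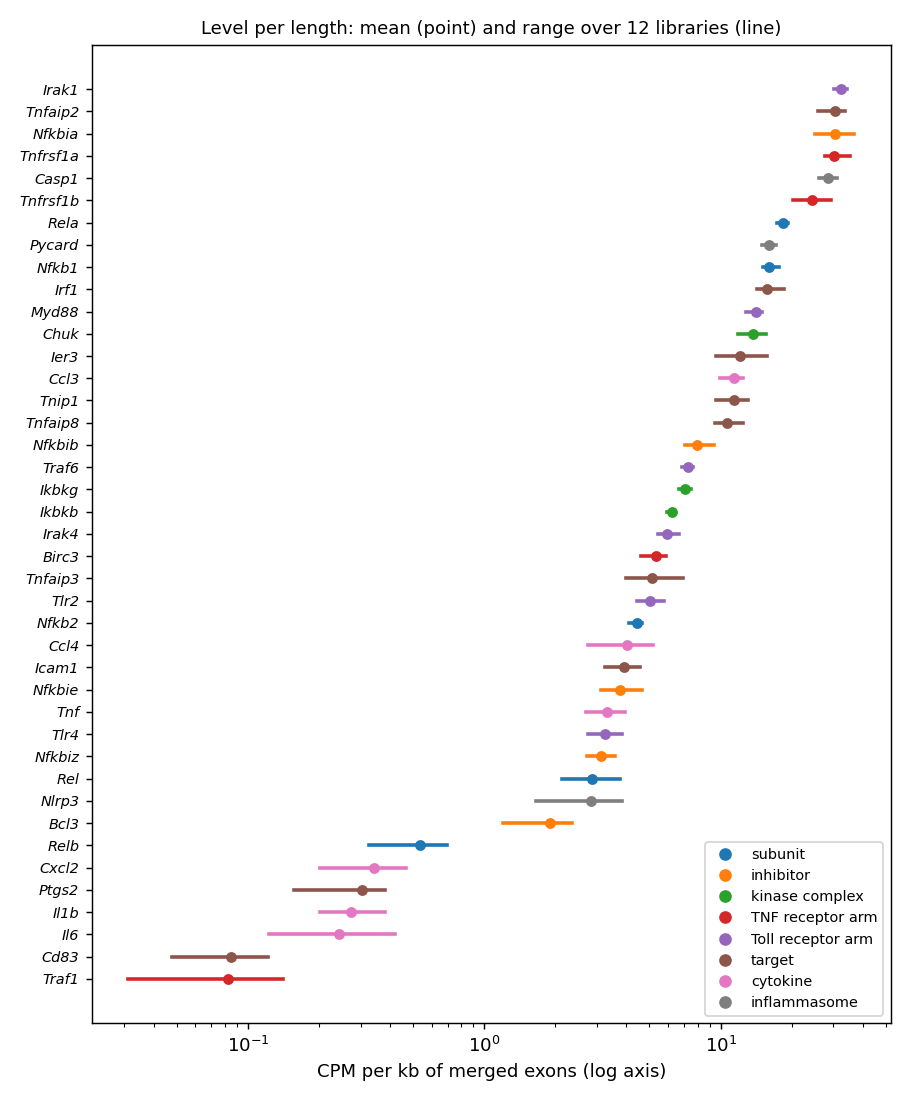
Level of each of the 41 members in CPM per kb of merged exons (log axis), as the mean over 12 libraries (point) and the range (line), coloured by role. Irak1, Tnfaip2, Nfkbia, Tnfrsf1a and Casp1 lead at 28.6 to 32.2, and Traf1, Cd83, Il6, Il1b, Ptgs2, Cxcl2 and Relb lie under 1 CPM per kb.

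The pathway as a whole was shifted little, with a modest lean toward higher levels in Tet2KO. Of the 41 members 40 passed the filter on low counts and were tested, all but Cd83, a surface protein of mature dendritic cells. In Tet2KO against WT 11 members rose and 4 fell (edgeR adjusted p under 0.05, 37.5% of 40), where 32.8% of all genes tested were called, 16.6% higher and 16.2% lower. The median log2 fold change of the 40 was 0.12, against 0 over all genes. In Id1KO against WT 7 rose and 3 fell, where 15.0% of all genes were called, 7.26% higher and 7.77% lower. In dKO against WT 3 rose and 4 fell, where 19.2% were called, 10.2% higher and 8.97% lower. The share of members called, 17.5%, was near that of all genes in this comparison.

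In dKO against Tet2KO 2 members rose and 10 fell, where 26.4% of all genes were called, 13.1% higher and 13.4% lower, and the members' median was -0.08. In dKO against Id1KO 6 rose and 5 fell, where 19.3% were called, 10.6% higher and 8.70% lower. The interaction, which asks whether the change from Tet2KO to dKO differs from that from WT to Id1KO, was called for 9 members, 2 above 0 and 7 below, where 14.5% of all genes were called, 7.46% above and 7.03% below. No called pairwise change reached 2-fold. Over the 6 comparisons the members had 64 calls in 240 tests (26.7%), where 21.2% of the tests of all genes were called. At least 1 call was made for 22 members, a count given without the matching share of all genes. The other 19 include Cd83 and 18 tested members, for which edgeR gave 7 unadjusted p-values under 0.05 over the 6 comparisons and DESeq2 no adjusted call. Tet2KO had the highest of the 4 genotype means for 23 of 40 members (57.5%), against 30.2% of all genes tested. Tet2KO against WT and dKO against Tet2KO share the Tet2KO libraries, so a high Tet2KO level enters both.

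**Figure D2:**
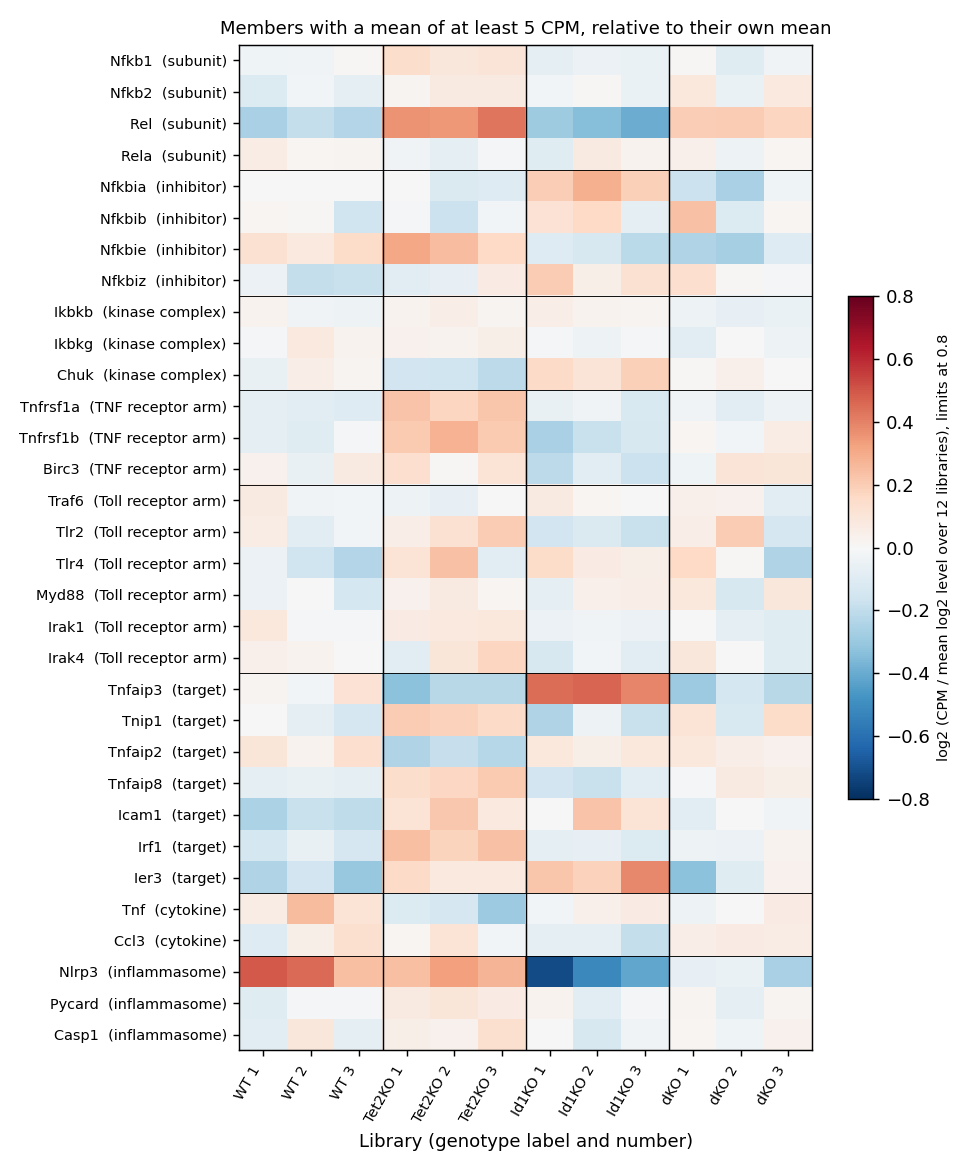
Log2 level, in each of the 12 libraries, of the 32 members whose mean reached 5 CPM, relative to the gene's own mean, with rows grouped by role and columns by genotype label (colour limits at 0.8). Rel is high in the 6 libraries labelled Tet2KO or dKO, Tnfaip3 is high in Id1KO, and Nlrp3 is low in Id1KO and dKO.

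Among the subunits Rel was the member that moved most. Rel (ENSMUSG00000020275.9, chr11:23736847-23770970, minus strand, GRCm38) encodes c-Rel, a subunit with a transactivation domain. It stood at 17.5, 18.3 and 17.8 CPM in the WT libraries, 26.9, 26.6 and 28.1 in Tet2KO, 17.2, 16.5 and 15.9 in Id1KO, and 24, 24.1 and 23.6 in dKO. The libraries of both Tet2-null labels all lay above those of WT and Id1KO, with no overlap. The log2 fold change was 0.61 ± 0.053 (SE) for Tet2KO against WT (edgeR adjusted p = 3.7e-08), 0.53 ± 0.055 for dKO against Id1KO (adjusted p = 7.23e-07) and 0.42 ± 0.055 for dKO against WT. Rel was lower in dKO than in Tet2KO by a log2 value of -0.19 ± 0.052 (edgeR adjusted p = 0.0102), a call that was lost without Tet2KO library 3 (adjusted p = 0.0509) and with DESeq2. The interaction was -0.08 ± 0.077 (edgeR adjusted p = 0.607).

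The other subunits moved less or did not pass. Nfkb1, whose precursor p105 yields p50, stood at 190, 191 and 196 CPM in WT, 214, 207 and 209 in Tet2KO, 184, 188 and 187 in Id1KO, and 196, 182 and 191 in dKO. It was highest in Tet2KO, by 0.13 ± 0.029 in log2 over WT (edgeR adjusted p = 0.00202), and lower in dKO than in Tet2KO by -0.15 ± 0.03. Rela, the main activating partner of p50, stood between 53 and 59.5 CPM in the 12 libraries and passed in none of the 6 comparisons, with log2 changes between -0.07 and 0.07. Nfkb2 and Relb of the noncanonical arm did not pass either. Nfkb2 was 0.12 ± 0.057 for Tet2KO against WT (edgeR adjusted p = 0.113), and Relb rested on 23 to 50 counts per library.

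Among the inhibitors Nfkbia, Nfkbiz and Bcl3 rose and Nfkbie fell in Id1KO against WT. Nfkbia (ENSMUSG00000021025.8, chr12:55489410-55492647, minus strand) encodes IkB alpha, the classical inhibitor that NF-kB itself induces. It stood at 48.8, 48.7 and 48.5 CPM in WT, 48.8, 44.9 and 45.3 in Tet2KO, 55.8, 59.2 and 55.6 in Id1KO, and 43.2, 40.6 and 47.4 in dKO. Id1KO was above every other library. The log2 change was 0.22 ± 0.05 for Id1KO against WT (edgeR adjusted p = 0.00409) and -0.38 ± 0.051 for dKO against Id1KO (adjusted p = 1.96e-05). For dKO against WT it was -0.16 ± 0.052 (edgeR adjusted p = 0.042), which did not pass in 8 of 12 fits with 1 library left out, nor with DESeq2.

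Nfkbie, which encodes IkB epsilon, was low under both Id1-null labels. It stood at 12.4, 12 and 12.6 CPM in WT, 14.1, 13.5 and 12.7 in Tet2KO, 10.6, 10.4 and 9.79 in Id1KO, and 9.64, 9.46 and 10.6 in dKO. The 6 Id1-null libraries lay below the other 6. The log2 change was -0.27 ± 0.078 for Id1KO against WT (edgeR adjusted p = 0.0231), lost without WT library 1 or 3 or Id1KO library 3 and with DESeq2, and -0.44 ± 0.08 for dKO against Tet2KO (adjusted p = 0.000391). Bcl3, an IkB-like protein of the nucleus that works with p50 and p52, rested on 55 to 108 counts per library. It stood at 3.89, 3.4 and 2.97 CPM in WT, 5.39, 3.57 and 4.79 in Tet2KO, 5.38, 5.62 and 5.83 in Id1KO, and 5.64, 4.49 and 5.02 in dKO. Id1KO and dKO lay above WT. It rose by 0.71 ± 0.15 in Id1KO against WT (edgeR adjusted p = 0.00235). Its rise of 0.42 in Tet2KO, where the libraries overlapped with WT, was lost in 5 of 12 such fits, without WT library 2 or 3, Tet2KO library 1 or 3, or Id1KO library 2, and with DESeq2. Its rise of 0.56 in dKO was lost without WT library 3 or dKO library 1. Nfkbiz, another nuclear regulator, was 0.26 ± 0.071 higher in Id1KO than in WT (edgeR adjusted p = 0.0155), lost without WT library 2 or 3 or Id1KO library 1 and with DESeq2, and Nfkbib did not pass in any comparison, with 16.5 to 18 CPM by genotype.

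The IkB kinase complex changed by small amounts. Chuk, the kinase IKK alpha, stood at 67, 72.2 and 70.9 CPM in WT, 62.6, 62.4 and 60.4 in Tet2KO, 77.5, 75 and 79.5 in Id1KO, and 70.2, 71.6 and 70 in dKO. The order was Tet2KO below WT and dKO, which overlapped, and Id1KO on top. The log2 changes were -0.18 ± 0.038 for Tet2KO against WT (edgeR adjusted p = 0.000908), 0.14 ± 0.036 for Id1KO against WT and 0.01 ± 0.037 for dKO against WT, with the Id1KO call lost without WT library 1. Ikbkb, the kinase IKK beta, lay between 113 and 123 CPM and was lower in dKO than in Tet2KO by -0.10 ± 0.029 and than in Id1KO by -0.09 ± 0.029. The second of these was lost in 5 of 12 fits, those without Id1KO library 1 or 2 or any dKO library, and the first without Tet2KO library 2. DESeq2 made neither call. Ikbkg, the scaffold NEMO, did not pass, and its exons overlap those of G6pdx on the opposite strand, which is counted higher.

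Both TNF receptors were higher in Tet2KO. Tnfrsf1a, the receptor on most cell types, stood at 73.5, 73.3 and 72.4 CPM in WT, 91.1, 87.6 and 90.7 in Tet2KO, 74.5, 76.2 and 71.4 in Id1KO, and 76.1, 72.9 and 75.6 in dKO. Only the Tet2KO libraries stood apart, above all others. The log2 change was 0.30 ± 0.034 for Tet2KO against WT (edgeR adjusted p = 1.13e-06) and -0.26 ± 0.034 for dKO against Tet2KO (adjusted p = 1.2e-05), while dKO and WT differed by 0.04 with a 95% interval from -0.03 to 0.10. Tnfrsf1b, the second receptor, stood at 87.4, 86.5 and 91.4 CPM in WT, 107, 112 and 107 in Tet2KO, 77.3, 81.8 and 84.5 in Id1KO, and 93.5, 91 and 96.2 in dKO. Tet2KO was again above all others and Id1KO below all others. It rose by 0.30 ± 0.036 in Tet2KO against WT (edgeR adjusted p = 2.68e-06) and by 0.20 ± 0.038 in dKO against Id1KO (adjusted p = 0.000584). Its fall of -0.12 in Id1KO against WT was lost without WT library 1 or 3 or Id1KO library 1 or 2, and with DESeq2. Birc3, a ubiquitin ligase of the receptor complex that shares near-identical stretches with 5 other genes, stood at 27.3, 25.6 and 28 CPM in WT, 29.3, 26.8 and 28.7 in Tet2KO, 23, 25.1 and 23.7 in Id1KO, and 26, 28.6 and 28.5 in dKO. The Id1KO libraries lay below all others. It was 0.21 ± 0.059 higher in dKO than in Id1KO (edgeR adjusted p = 0.0153), lost without Id1KO library 1 or dKO library 2 or 3, and with DESeq2. Traf1, an adaptor, held 5 to 23 counts and did not pass.

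In the Toll receptor arm only 1 change passed the threshold. Tlr2, the receptor for bacterial lipoproteins, ran from 13.4 to 17.4 CPM, the adaptor Myd88 from 33 to 38.6, the kinase Irak4 from 27.2 to 33.4 and the ligase Traf6 from 54 to 60.3. Tlr4, the receptor for lipopolysaccharide, stood at 17.4, 16.1 and 15.3 CPM in WT, 19.4, 21.2 and 17 in Tet2KO, 19.9, 18.8 and 18.6 in Id1KO, and 20.1, 18.1 and 15.2 in dKO. The WT libraries were low but overlapped Tet2KO and dKO. Its log2 change was 0.23 ± 0.09 for Tet2KO against WT (edgeR adjusted p = 0.0516) and 0.23 ± 0.089 for Id1KO against WT (adjusted p = 0.0885). The interaction of Tlr4 was -0.34 ± 0.13 (edgeR adjusted p = 0.0788). Over the arm's 6 genes and the 6 comparisons edgeR made 1 call, Irak1 at -0.13 ± 0.033 for dKO against Tet2KO (adjusted p = 0.0046). That is 2.78% of the arm's 36 tests, where 21.2% of the tests of all genes were called. There were 6 unadjusted p-values under 0.05, and DESeq2 made 1 call.

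**Figure D3:**
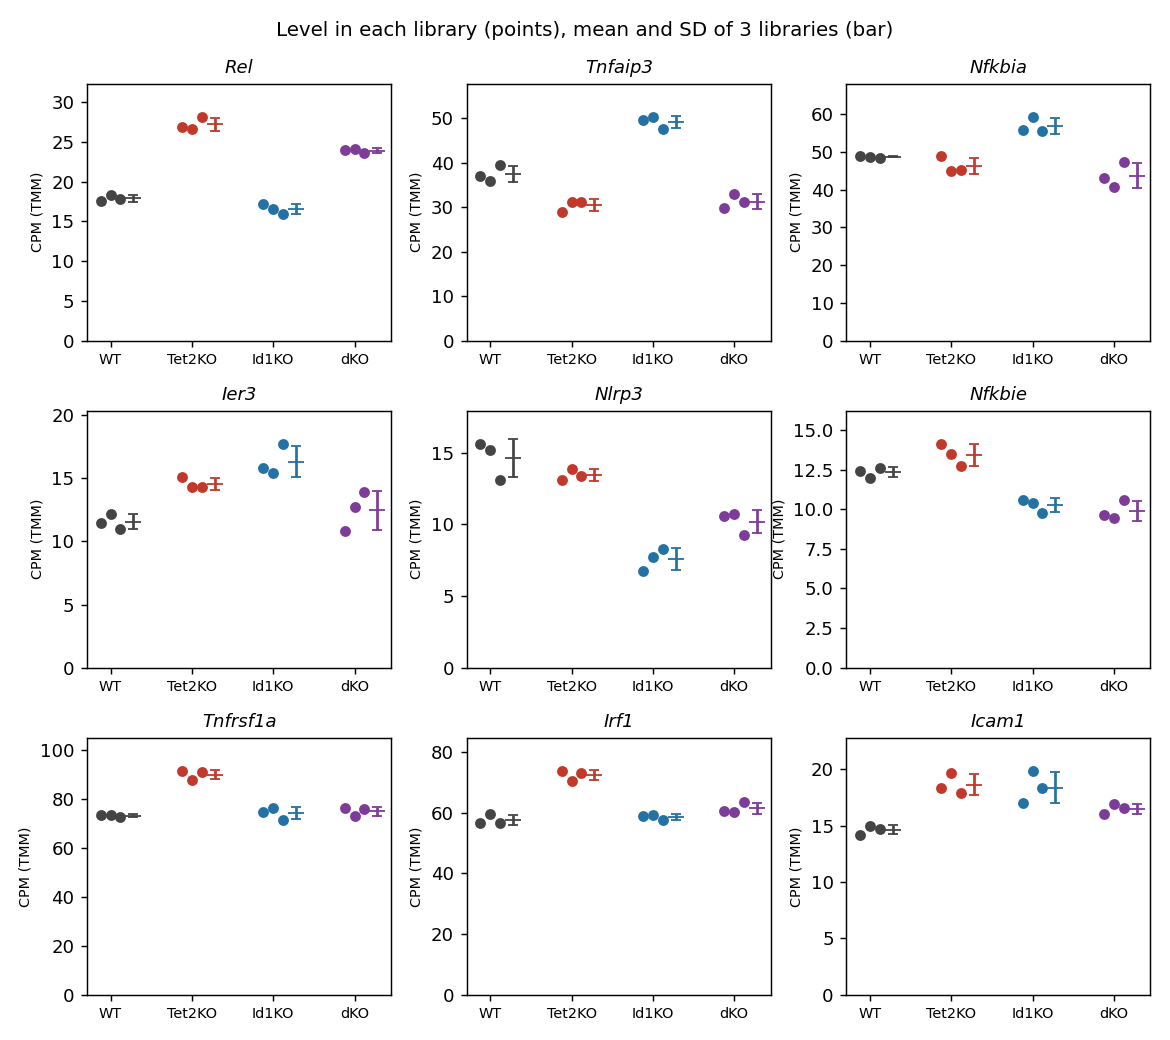
CPM of 9 members in each library (points, 3 per genotype label) with the mean and SD of 3 libraries beside them, all axes from 0. Rel is raised in Tet2KO and dKO, Tnfaip3 and Nfkbia peak in Id1KO, Tnfrsf1a and Irf1 stand apart in Tet2KO, and Nlrp3 is lowest in Id1KO.

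The 8 tested targets and feedback genes held 24 of the 64 calls that the members had over the 6 comparisons. That is 50% of their 48 tests, where 26.7% of the members' 240 tests and 21.2% of the tests of all genes were called. The 6 comparisons are drawn from 4 genotype means, so 1 genotype that stands apart is counted in several of them. The 24 calls are therefore not separate findings. Tnfaip3 (ENSMUSG00000019850.11, chr10:19000910-19015657, minus strand) encodes A20, a ubiquitin-editing enzyme that shuts NF-kB signalling off. It stood at 36.9, 35.8 and 39.4 CPM in WT, 28.9, 31.2 and 31.2 in Tet2KO, 49.6, 50.2 and 47.6 in Id1KO, and 29.7, 32.9 and 31.1 in dKO. Both Tet2-null labels lay below WT and overlapped each other, and Id1KO lay above all. The log2 change was -0.29 ± 0.053 for Tet2KO against WT (edgeR adjusted p = 0.000261), 0.39 ± 0.05 for Id1KO against WT (adjusted p = 1.54e-05) and -0.65 ± 0.052 for dKO against Id1KO (adjusted p = 1.69e-08). The fall with the Tet2-null label was larger where Id1 was labelled null as well, with an interaction of -0.36 ± 0.075 (edgeR adjusted p = 0.00281).

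Ier3 (ENSMUSG00000003541.6, chr17:35821684-35822923, plus strand), an early response gene of NF-kB and stress, was high with either single label and not with both. It stood at 11.5, 12.2 and 11 CPM in WT, 15.1, 14.3 and 14.3 in Tet2KO, 15.8, 15.4 and 17.7 in Id1KO, and 10.8, 12.7 and 13.9 in dKO. The dKO libraries overlapped WT and lay below both single labels. It rose by 0.33 ± 0.087 in Tet2KO (edgeR adjusted p = 0.00595) and by 0.49 ± 0.085 in Id1KO (adjusted p = 0.000473) against WT, and the interaction was -0.71 ± 0.12 (adjusted p = 0.000537). With the 3 libraries of a genotype summed and additive effects of the 2 labels, the fitted change with the Tet2-null label was -0.02 (edgeR adjusted p = 0.972). Icam1, an adhesion molecule, was likewise highest with the single labels, with 14.2, 15 and 14.7 CPM in WT, 18.3, 19.7 and 17.9 in Tet2KO, 17, 19.8 and 18.3 in Id1KO, and 16, 16.9 and 16.6 in dKO. The dKO libraries lay between WT and both single labels, with no overlap. Its log2 change was 0.35 ± 0.068 in Tet2KO and 0.33 ± 0.068 in Id1KO, with an interaction of -0.50 ± 0.096 (edgeR adjusted p = 0.00151), and its exons overlap those of a thinly counted antisense gene by 511 bases.

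Irf1, an interferon regulatory factor that NF-kB can induce, stood at 56.5, 59.6 and 56.6 CPM in WT, 73.5, 70.4 and 73 in Tet2KO, 58.8, 59.3 and 57.6 in Id1KO, and 60.5, 60.3 and 63.4 in dKO. Only Tet2KO stood far from the others, as with Tnfrsf1a. The rise over WT was 0.33 ± 0.037 (edgeR adjusted p = 1.03e-06), dKO was lower than Tet2KO by -0.24 ± 0.037, and the interaction was -0.26 ± 0.053. Tnfaip2, a TNF-induced gene of cell shape and membrane protrusions, moved the opposite way in the same libraries. It stood at 163, 155 and 167 CPM in WT, 129, 134 and 130 in Tet2KO, 161, 157 and 161 in Id1KO, and 161, 158 and 156 in dKO. It was lower in Tet2KO than in WT by -0.30 ± 0.031 (edgeR adjusted p = 3.47e-07), higher in dKO than in Tet2KO by 0.27 ± 0.032, and its interaction was 0.29 ± 0.044.

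Tnfaip8, an inhibitor of apoptosis, stood at 105, 106 and 105 CPM in WT, 122, 124 and 128 in Tet2KO, 99.3, 97.8 and 104 in Id1KO, and 110, 116 and 114 in dKO. Both Tet2-null labels lay above WT and Id1KO. Its log2 change was 0.24 ± 0.032 for Tet2KO against WT (edgeR adjusted p = 9.12e-06) and 0.17 ± 0.033 for dKO against Id1KO (adjusted p = 0.000901), and its rise of 0.10 in dKO against WT was lost without any 1 WT library or dKO library 2 or 3, and with DESeq2. Tnip1, a partner of A20, was 0.25 ± 0.062 higher in Tet2KO than in WT (edgeR adjusted p = 0.00389) and 0.20 ± 0.064 higher in dKO than in Id1KO, where the libraries overlapped and the call was lost in 4 of 12 fits, without Id1KO library 1 or 3 or dKO library 1 or 3. Ptgs2, the inducible cyclooxygenase, held 12 to 30 counts per library and did not pass.

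Of the 6 cytokines, edgeR called 1 in 1 comparison. That is 2.78% of their 36 tests, where 21.2% of the tests of all genes were called. Il1b held 7 to 14 counts per library, Il6 5 to 17 and Cxcl2 7 to 18, so only large differences in them were measurable. Tnf stood at 5.65, 6.44 and 5.84 CPM in WT, 5.02, 4.94 and 4.42 in Tet2KO, 5.33, 5.57 and 5.67 in Id1KO, and 5.26, 5.39 and 5.67 in dKO. Tet2KO was below all other libraries, by -0.32 ± 0.11 in log2 against WT (edgeR adjusted p = 0.0291), and the call was lost without WT library 2 or 3 or Tet2KO library 3, and with DESeq2. Il1b, the precursor of interleukin-1 beta, ran from 0.384 to 0.722 CPM in the 12 libraries, with a log2 change of -0.29 ± 0.34 for Tet2KO against WT (edgeR adjusted p = 0.586). The chemokine Ccl3 ran from 7.65 to 9.56 CPM. Over the 6 cytokines there were 3 unadjusted p-values under 0.05 in the 6 comparisons, and DESeq2 made no call.

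In the inflammasome group the sensor moved and the adaptor and protease hardly did. Nlrp3 (ENSMUSG00000032691.14, chr11:59541568-59566956, plus strand), a cytosolic sensor of cell stress, stood at 15.6, 15.2 and 13.1 CPM in WT, 13.1, 13.9 and 13.4 in Tet2KO, 6.75, 7.75 and 8.31 in Id1KO, and 10.6, 10.7 and 9.27 in dKO. Id1KO was lowest, dKO lay between, and both lay below WT and Tet2KO, which overlapped. It was lower by -0.94 ± 0.094 in Id1KO against WT (edgeR adjusted p = 7.5e-07) (0.52-fold of the WT level), by -0.52 ± 0.091 in dKO against WT and by -0.40 ± 0.093 in dKO against Tet2KO (adjusted p = 0.00326). The drop was smaller with the Tet2-null label, with an interaction of 0.54 ± 0.13 (edgeR adjusted p = 0.00914). Pycard, the adaptor ASC, rose by 0.12 ± 0.041 in Tet2KO (edgeR adjusted p = 0.0302), lost without WT library 1 or Tet2KO library 1 or 2, and with DESeq2. Casp1, the protease that cleaves pro-interleukin-1 beta, stood at 40.2, 45.6 and 40.7 CPM in WT, 44.2, 43.8 and 46.7 in Tet2KO, 42.8, 39.2 and 42 in Id1KO, and 43.2, 41.8 and 43.8 in dKO. The Casp1 groups lay close together, and it passed in none of the 6 comparisons.

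Tet2 loss can be asked about in 2 pairs of labels that share no library, Tet2KO against WT and dKO against Id1KO. Called in both were 7 members, which is 46.7% of the 15 called in the first and 63.6% of the 11 called in the second, where 1547 genes were called in both over the whole table, 32.9% of 4699 and 56% of 2762. As a share of the genes tested, 17.5% of the members and 10.8% of all genes were called in both, 9.41% of all genes with the same sign. Rel, Tnfaip8, Tnfrsf1b and Tnip1 rose in both, Chuk and Tnfaip3 fell in both (the second call of Chuk was lost without Id1KO or dKO library 3, and with DESeq2), and Ier3 rose in the first and fell in the second. For Id1 loss, Id1KO against WT and dKO against Tet2KO, 4 members were called in both, 40% of 10 and 33.3% of 12, where the 931 genes called in both over the whole table were 43.2% of 2156 and 24.5% of 3793. As a share of the genes tested these were 10% of the members and 6.49% of all genes, 5.30% with the same sign. Chuk rose in both, and Nfkbie, Nlrp3 and Tnfrsf1b fell in both.

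**Figure D4:**
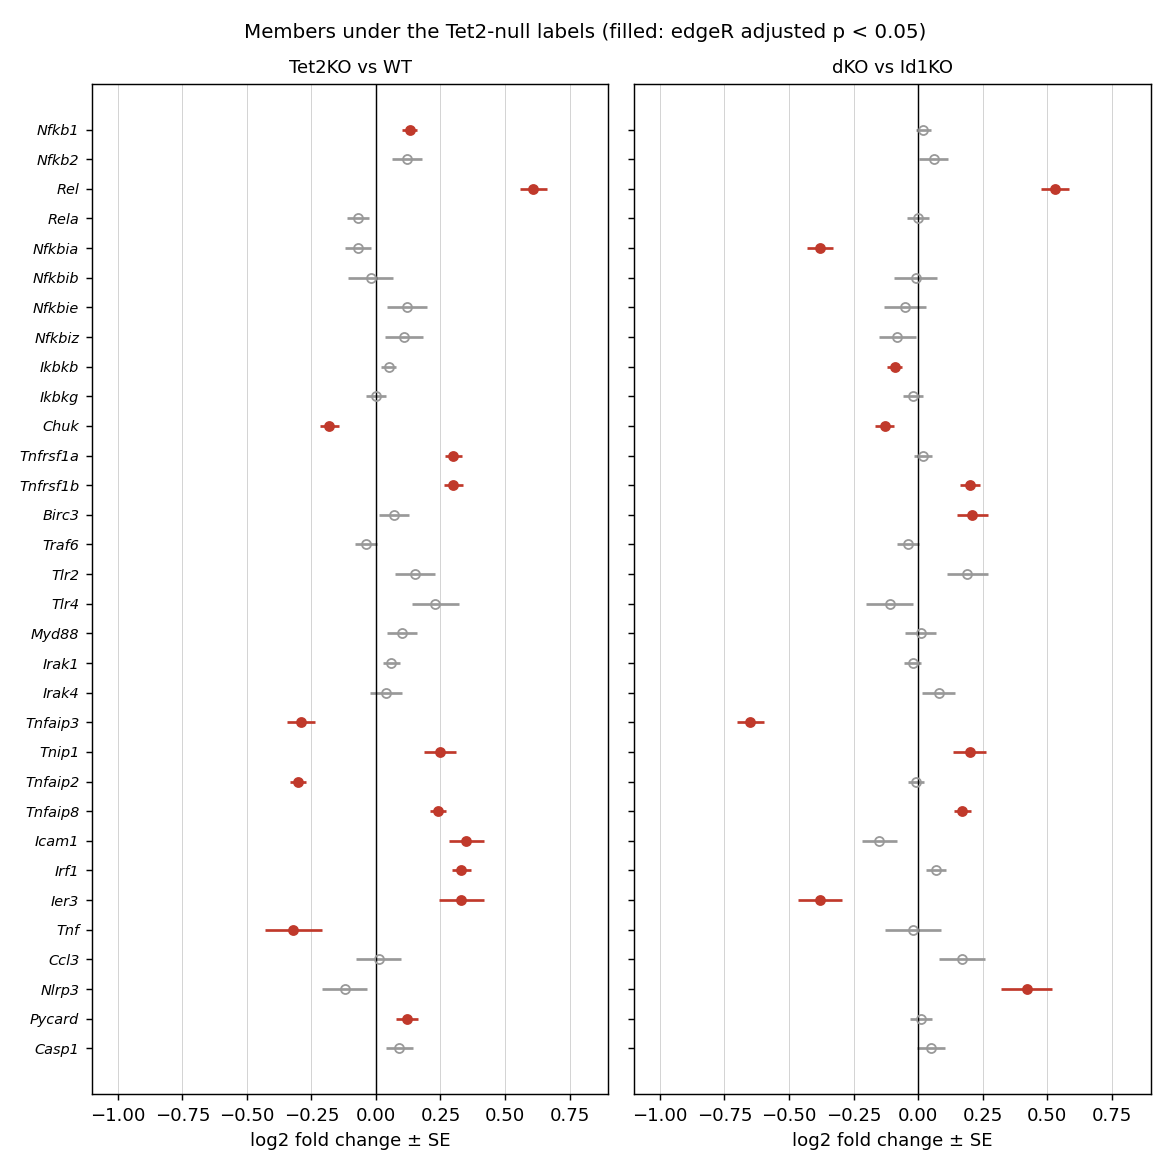
Log2 fold change ± SE of the 32 members with a mean of at least 5 CPM under the Tet2-null label, in Tet2KO against WT (left) and dKO against Id1KO (right), with filled points where the edgeR adjusted p was under 0.05. Rel is far right in both panels at 0.61 and 0.53, and Tnfaip3 is left in both at -0.29 and -0.65.

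**Figure D5:**
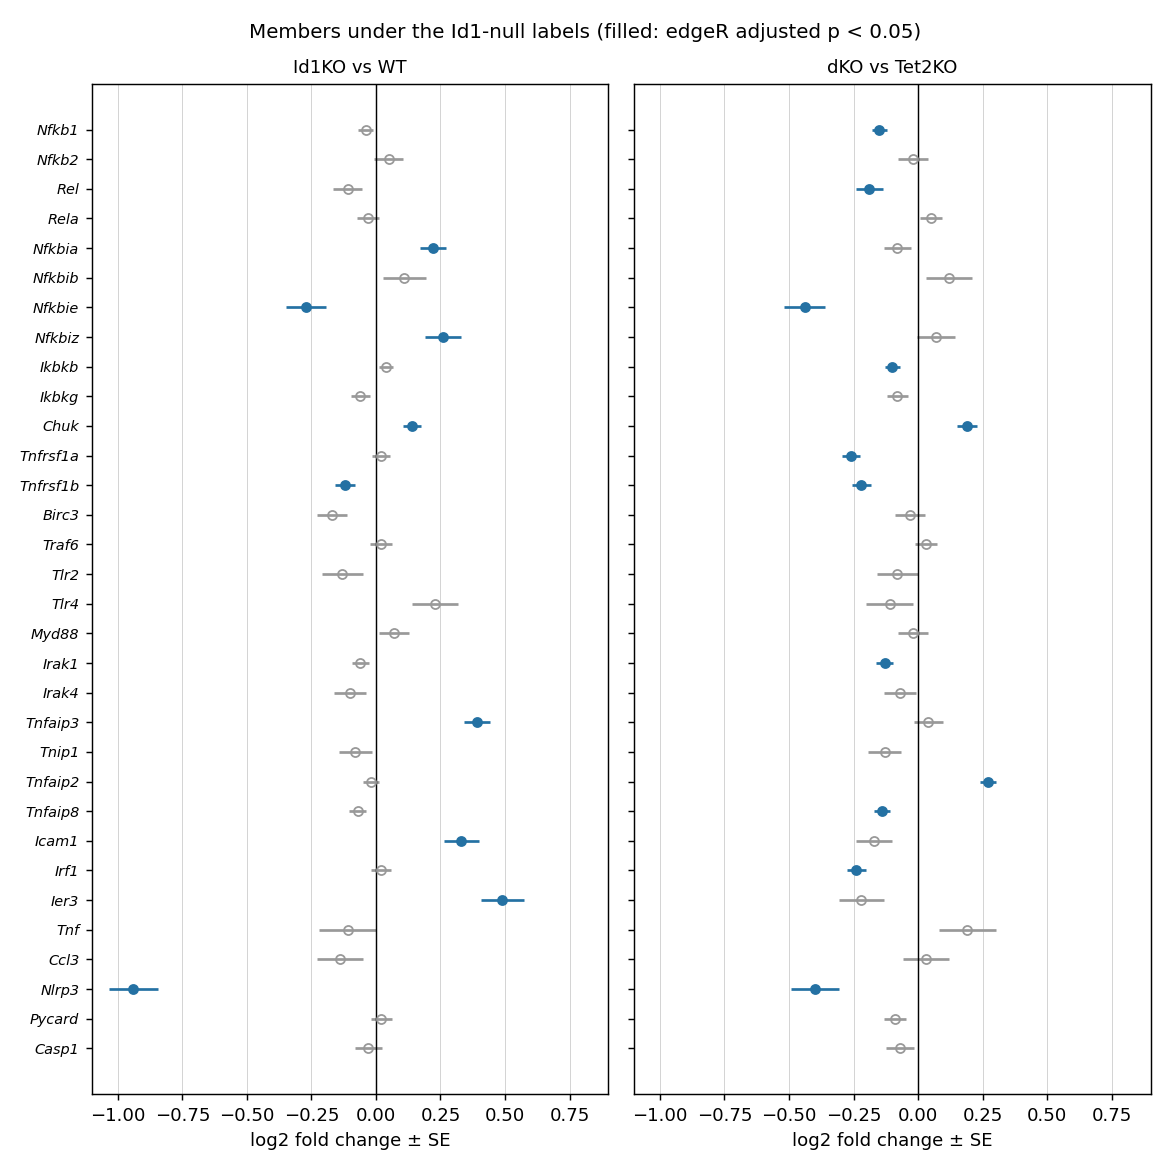
The same for the Id1-null label, in Id1KO against WT (left) and dKO against Tet2KO (right). Nlrp3 and Nfkbie lie left of 0 in both panels, Chuk lies right of 0 in both, Nfkbia lies right of 0 in the left panel at 0.22 and left of it in the right panel at -0.08, and Tnfaip3 lies at 0.39 and 0.04.

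The other genes of these pathways were 86 by a list drawn up from their known function, with earlier results of these data known. They were also higher more often than lower in Tet2KO. Of the 79 tested, 23 rose and 10 fell in Tet2KO against WT (41.8% called, where 32.8% of all genes were, and median 0.11). In Id1KO against WT 7 rose and 10 fell (21.5%, where 15.0% of all genes were called), and in dKO against WT 6 rose and 7 fell (16.5%, where 19.2% were). In dKO against Tet2KO 5 rose and 24 fell (36.7%, where 26.4% were, and median -0.14), and in dKO against Id1KO 11 rose and 7 fell (22.8%, where 19.3% were). The interaction was called for 12 (15.2%, where 14.5% were), so the shares for it and for dKO against WT were near those of all genes. Their highest mean was in Tet2KO for 44 of 79 (55.7%), against 30.2% of all genes tested. Of 21 Toll and interleukin-1 receptors with their adaptors, 8 rose and 2 fell in Tet2KO against WT, and 1 rose and 6 fell in Id1KO against WT.

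Tlr1, Tlr6, Tlr7, Tlr8 and Tlr9 were each called in at least 1 pairwise comparison, and none of them exceeded 8.92 CPM in any library. Tlr1, which pairs with Tlr2, had means of 3.32 ± 0.22 CPM (SD, n = 3) in WT, 3.38 ± 0.21 in Id1KO, 5.67 ± 0.51 in Tet2KO and 5.13 ± 0.39 in dKO. Tlr6, the other partner of Tlr2, went the opposite way, with 8.52 ± 0.64, 6.2 ± 0.24, 5.56 ± 0.32 and 4.04 ± 0.66 CPM in the same order. Their log2 changes in dKO against WT were 0.62 ± 0.13 and -1.07 ± 0.12 (edgeR adjusted p = 0.00137 and 1.84e-06). Summed, Tlr1 and Tlr6 stood at 11.8 ± 0.43 CPM in WT, 9.59 ± 0.085 in Id1KO, 11.2 ± 0.21 in Tet2KO and 9.16 ± 0.31 in dKO. The nucleic acid sensor Tlr8 rose by 1.09 ± 0.19 in Tet2KO against WT from 1.22 CPM, and Tlr7 and Tlr9 were higher in dKO than in Id1KO by 0.97 and 0.69, the latter lost without Id1KO library 1 or 3 or dKO library 1, and with DESeq2. Cd14, the co-receptor of Tlr4, was 0.65 ± 0.16 higher in dKO than in Id1KO (edgeR adjusted p = 0.00509).

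Vcam1, an adhesion molecule that NF-kB induces in many cells, had means of 30.3 ± 1.3 CPM (SD, n = 3) in WT, 29.5 ± 0.66 in Id1KO, 17.6 ± 1.2 in Tet2KO and 12.7 ± 1.2 in dKO. It fell by -0.78 ± 0.063 in Tet2KO against WT and by -1.22 ± 0.068 in dKO against Id1KO (edgeR adjusted p = 1.09e-08 and 7.92e-11). It was also called lower with the libraries of a genotype summed (edgeR adjusted p = 0.0235). Mefv, which encodes the inflammasome sensor pyrin, fell alike, from 46.2 ± 0.65 CPM in WT to 33.1 ± 1.7 in Tet2KO and from 44.7 ± 2.7 in Id1KO to 31.4 ± 1.4 in dKO. Nlrc4, an inflammasome gene with short stretches shared with 32 other genes, stood alone in Tet2KO at 24.1 ± 0.54 CPM against 18 ± 0.67 in WT. Il1rl1, the interleukin-33 receptor, changed by -0.41 in Tet2KO and by 0.32 in Id1KO against WT, in log2.

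Markers on the monocyte, neutrophil and erythroid lists moved with the labels. The lists do not tell mature cells from committed progenitors, and their genes differ widely in level. In WT Ly6c2 of the monocyte list had a mean of 544 CPM and C1qa 0.349. Over all genes tested, 32.8% were called in Tet2KO against WT, 16.6% higher and 16.2% lower. Summed over 11 genes, markers of monocytes and macrophages stood at 1616 to 1686 CPM in WT, 1501 to 1529 in Id1KO, 1908 to 1952 in Tet2KO and 1817 to 1876 in dKO, with 6 higher and 1 lower in Tet2KO against WT. Those of mature neutrophils, of which Ly6g was at or under 0.5 CPM, summed to 71 to 76.1 CPM in WT, 71.6 to 77.3 in Id1KO, 92.9 to 98.5 in Tet2KO and 91.8 to 103 in dKO. In Tet2KO against WT S100a8, S100a9 and Cxcr2 of this list were higher, and the granule genes Ngp (-0.49 in log2) and Camp (-0.92) were lower. Summed erythroid markers were lowest in Tet2KO, at 338 to 343 CPM, with 606 to 643 in WT, 674 to 688 in Id1KO and 567 to 579 in dKO. Gene by gene, 0 were higher and 6 lower in Tet2KO against WT. In dKO against WT 2 were higher and 1 lower, where 19.2% of all genes tested were called. Car1 dominated the sum, with means of 493 CPM in WT and 441 in dKO, while Hbb-bs had 7.53 and 14. The 11 immediate early and heat shock genes, which respond fast to stress, summed to 1254 to 1304 CPM in WT, 999 to 1055 in Id1KO, 1177 to 1212 in Tet2KO and 864 to 952 in dKO, but they did not move together. In Tet2KO against WT 4 were lower, Fos, Fosb, Jun and Dusp1, and 3 higher, Zfp36 and the heat shock genes Hspa1a and Hspa1b. Hspa1a had means of 43.8 CPM in Tet2KO, 18.9 in Id1KO, 12.4 in WT and 8.76 in dKO, and Hspa1b 56.8, 29.3, 17.6 and 15.4 in that order. The part of these shifts in the results above was not tested. In bulk RNA, fewer cells of a type and less RNA per cell cannot be told apart.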

How the data were processed

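Counts per gene were estimated counts as deposited by the authors, not normalized, with values that are not whole in 8.25% of genes. STAR, RSEM and the build mm10 are named in the submitters' processing notes, without versions; the strand setting is not given in the sources used here. All 55450 identifiers matched GENCODE M21 (GRCm38).

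The 41 members and all lists were chosen with earlier results of these data known. Counts were rounded, and filterByExpr (minimum count 10) kept 14346 genes. After TMM scaling, edgeR's quasi-likelihood test was fitted to all 12 libraries (1 mean per genotype), with Benjamini-Hochberg adjustment over all genes tested and a threshold of 0.05. CPM uses the TMM-scaled totals. The total counts per library set the counting error; with 3 libraries a group, an exact permutation test cannot go below 0.1, and none was used. Per-library values are given for Nfkb1, Rela, Nfkbia, Tnf, Il1b, Tlr4, Nlrp3 and Casp1 (Rela and Il1b by range), and for members called in a pairwise comparison, with at least 5 CPM, no overlap and 1 of the 3 highest or 3 lowest changes. Other pathway genes are named from the 3 highest and 3 lowest called, from 1 CPM.

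Near-identical exonic stretches (at least 95% identity over 100 bp) were sought with blast. The alternatives were DESeq2, RLE scaling, TMM that left out 3339 genes of mitochondria or small structural RNAs, no filter, only the libraries compared, a replicate block, glmTreat, a threshold of 0.01, leaving out each library, and summed libraries. The edgeR, DESeq2, replicate block and summed fits were tested on simulated data, for Tet2KO against WT only, and the other steps were not. The software was edgeR 4.0.16 and DESeq2 1.42.0 with limma 3.58.1 under R 4.3.3, blast 2.17.0, and matplotlib 3.10.9 under Python 3.11.15.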

Additional observations from a re-analysis of the deposited data

Results flagged for a closer look

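For 9 members the change with the Id1-null label differed between libraries with and without the Tet2-null label (edgeR interaction, adjusted p under 0.05, where 14.5% of all genes tested were called). The interaction in log2 was -0.71 for Ier3, -0.50 for Icam1, -0.36 for Tnfaip3, -0.31 for Nfkbia, -0.28 for Tnfrsf1a, -0.26 for Irf1 and -0.14 for Ikbkb, and it was 0.54 for Nlrp3 and 0.29 for Tnfaip2. Ikbkb was not called without WT library 3, Tet2KO library 2 or Id1KO library 1, nor with DESeq2, and the other 8 were called in all 12 fits that left out 1 library.

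Among the other pathway genes named, the interaction was called for Il18r1 (-1.31), a chain of the interleukin-18 receptor, for the inflammasome gene Nlrc4 (-0.46) and for Vcam1 (-0.44). It was also called for the kinase adaptors Tab1 (0.48) and Tab3 (0.38), and for Rbck1 (0.18), a subunit of the linear ubiquitin ligase. Il18r1 rested on 14 to 40 counts per library and was not called without dKO library 3 (adjusted p = 0.0503), nor with DESeq2. Tab3 and Rbck1 each lost the call in 8 of the 12 fits that left out 1 library, among them those without WT library 3, Tet2KO library 2, Id1KO library 1 or 3, or dKO library 3 for both genes. DESeq2 did not call Tab3.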

How the results depend on the processing

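Of the 64 member calls, all 64 were kept with RLE scaling and with TMM without mitochondrial and small structural RNA genes, 50 with DESeq2, 59 without the filter and 50 of 55 with only the libraries compared. Those lost without the filter were Ikbkb in dKO against Id1KO and in the interaction, Tnfaip8 in dKO against WT, and Tnf and Pycard in Tet2KO against WT. The replicate numbers did not pair the libraries: same-numbered libraries had correlations of -0.263 to 0.106, 1 of 18 pairs over 0.1, and other numbers -0.125 to 0.222. With the numbers as a replicate block 63 calls were kept, and 16, 11, 6, 12, 11 and 10 members were called in the order used below: Tet2KO, Id1KO and dKO, each against WT, then dKO against each single knockout (Tet2KO, Id1KO), then the interaction.

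With glmTreat against a 1.2-fold change 7 of the 64 were kept: Rel in 3 comparisons, Nlrp3 in 2, Tnfaip3 and the interaction of Ier3. The members called were then 1, 1, 2, 0, 2 and 1 (in dKO against Tet2KO 2 had an unadjusted p under 0.05), the other pathway genes 9, 0, 5, 2, 5 and 0 (where none was called, 9 and 7 had one), and all genes 769, 140, 477, 334, 481 and 237. At a threshold of 0.01 47 were kept, with 6 members in Id1KO against WT, 4 in dKO against WT and 7 in dKO against Id1KO, 9 other pathway genes in Id1KO against WT, 15 in dKO against Tet2KO and 5 in the interaction, and 3122, 1085, 1557, 2285, 1599 and 972 of all genes. DESeq2 called 9 other pathway genes in Id1KO against WT, 7 in the interaction and 1342 genes in the interaction.

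With the 3 libraries of a genotype summed and additive effects, fitted by edgeR on 4 samples, the Tet2-null label called 232 genes, 1 member (Rel, 0.57, adjusted p = 0.039) and 2 other pathway genes, and the Id1-null label 7 genes, 0 members and 0 other pathway genes (5 and 12 had an unadjusted p under 0.05). Of 48 calls it kept 2, both of Rel, lost 45, and turned that of Ier3 in Tet2KO against WT to -0.02. The cause was not tested; the fit has fewer samples and no interaction.

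Leaving out 1 library at a time lost 2 to 9 of the 64, most without WT library 3. The members called ranged over 13 to 16, 7 to 10, 4 to 7, 11 to 13, 8 to 11 and 8 to 11, with the 4 in dKO against WT reached without WT library 3. Other pathway genes ranged over 24 to 37, 10 to 17, 11 to 13, 19 to 30, 12 to 19 and 7 to 13, and all genes over 3808 to 4964, 1512 to 2386, 1999 to 2784, 2951 to 3847, 2109 to 2837 and 1582 to 2161. For the other pathway genes, Id1KO against WT fell by over 1.5 times without WT library 2 or 3 or Id1KO library 1 (11, 10 and 11), dKO against Tet2KO without Tet2KO library 1 (19), and the interaction without WT library 3 (7). Depth limits Il1b, Il6, Cxcl2, Traf1 and Cd83.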
